A study of Homo sapiens with 6 samples.

Results

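Interferon-stimulated genes are switched on when a cell senses interferon, and their products block viral entry, degrade or edit viral RNA and tag or trap viral proteins. A set of 41 classical interferon-stimulated genes, leaving out the IFIT family, was followed in the human myeloma cell line KMS27 with and without overexpression of TAZ. Members were taken by gene symbol from a list of well known interferon targets. The rule used no measured value, but the list was chosen with earlier results of these data known. All 41 symbols were found, each under 1 of the 63677 Ensembl gene IDs in the data, and together they held 360 of 215170 transcripts. Of the 41 genes, 33 reached a mean of 1 TPM over the 6 libraries and 8 stayed below it (USP18, HERC6, OAS3, OASL, IFITM1, IFITM3, RSAD2 and IFI44L).

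KMS27 cells are an established line derived from multiple myeloma, a cancer of plasma cells. TAZ, the product of WWTR1, coactivates transcription under the control of the Hippo pathway, and HA is an epitope tag. The experiment compared 3 libraries of KMS27 cells overexpressing HA-TAZ with 3 libraries of wild type KMS27 cells, to see how the transcriptome changed on overexpression. The labels give neither a time after overexpression nor the vector or promoter that drives HA-TAZ, and the sample titles of the wild type libraries also carry the letters HA. The 3 control columns of the data bear a name that no label uses and were taken as the wild type libraries because no other samples remain; they are called control a, b and c here. All results come from 1 cell line.

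In type I interferon signalling, the receptor chains IFNAR1 and IFNAR2 bring the kinases JAK1 and TYK2 together. A complex that contains STAT2 and IRF9 then binds the interferon-stimulated response element in the promoters of target genes, while interferon gamma acts through the gamma-activated sequence. IRF1 and other IRF factors bind the same response element and can act on part of these genes without interferon. Type I interferon restrains the growth of myeloma cells and was used in the treatment of this disease.

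The response element is shown first because interferon acts on these genes through it. Promoter windows from 250 bases before to 50 bases after the start site, from RefSeq (GRCh38.p14), were found for 35 of the 41 members, and no window was used for OAS2, TRIM22, USP18, MX2, IFITM2 or OASL. The letters GAAANNGAAA, searched on both strands, occurred in 22 of these 35 members (62.9%) and in 4.38% of all 27305 genes with a window. The letters occurred in 9 of the 14 members that were called higher in HA-TAZ cells by the test described further on, in 8 of 15 that were tested and not called, and in 5 of 6 that were not tested. The shorter gamma-activated letters TTCNNNGAA occurred in 10 of 35 members (28.6%) and 9.38% of all genes, and were found in 3 of the 14 called members (OAS1, MX1 and PARP14), 6 of 15 tested and not called, and 1 of 6 not tested. A kappa B motif, GGGANTTTCC, occurred in the OAS3 window alone among the members and in 0.678% of all genes. A match describes letters in a window and says nothing of binding in these cells.

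The 5 stretches printed here hold the response element of the called members with the largest differences among those with a match, with the matching letters in capitals; each reads 5′ to 3′ on the plus strand and ends before the start site of its gene, or at the end of the match. DTX3L and PARP9 are transcribed away from each other and share 1 match. Their stretch is cut for DTX3L, and its first bases lie past the start site of PARP9.
DTX3L and PARP9 (chr3:122564292-122564341): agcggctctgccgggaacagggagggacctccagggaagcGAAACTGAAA
ISG15 (chr1:1013344-1013439): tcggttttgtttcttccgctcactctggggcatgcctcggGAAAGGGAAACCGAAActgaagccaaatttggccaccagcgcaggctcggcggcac
IFI44 (chr1:78649731-78649788): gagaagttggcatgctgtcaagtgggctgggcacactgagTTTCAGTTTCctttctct
PARP14 (chr3:122680770-122680838): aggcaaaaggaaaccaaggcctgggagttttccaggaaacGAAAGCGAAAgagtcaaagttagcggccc
ISG20 (chr15:88638907-88638996): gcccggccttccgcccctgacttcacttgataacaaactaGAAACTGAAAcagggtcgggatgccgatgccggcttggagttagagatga
The ISG15 stretch holds 2 overlapping matches, the first of which begins 113 bases before the start site. In IFI44 the element reads on the opposite strand and begins 18 bases before the start. The shared match lies 6 bases before the start of DTX3L, running over it, and 41 bases before that of PARP9.

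The overexpressed gene was read first as a check of the labels. WWTR1 stood at 293, 306 and 293 TPM in HA-TAZ libraries 1, 2 and 3 and at 2.69, 2.22 and 1.69 TPM in controls a, b and c. The log2 difference was 6.80 (adjusted p = 1.14e-05 by limma), and the 3 HA-TAZ columns matched their labels. TPM is an abundance per transcript length that sums to 1000000 in each library, so it shifts for all genes when a few RNAs take more of a library. TPM was therefore divided by a median-of-ratios factor per library, from 0.866 to 1.21, and differences are on the scale of log2(scaled TPM + 1), which understates the change of low genes. On this scale the median difference over all 22651 genes with a mean of at least 1 TPM was −0.03, and with TPM as deposited it was −0.27. All 8 plasma cell markers examined reached a mean of 1 TPM, and their summed scaled TPM overlapped, at 618 to 648 in HA-TAZ cells and 614 to 639 in controls. Among them CD38 was called lower (log2 difference −0.61, adjusted p = 0.0226) and SLAMF7 higher (0.95, adjusted p = 0.0128). Summed scaled TPM of T cell markers lay at 1.30 to 1.58 in HA-TAZ cells and 1.78 to 2.22 in controls. The sums overlapped for markers of monocytes (1.80 to 2.23 and 1.75 to 2.09, FCN1 at 0 throughout), NK cells (3.16 to 4.77 and 3.42 to 4.19) and fibroblasts (3.67 to 4.14 and 3.47 to 4.62). The plasmacytoid dendritic cell list summed to 38.2 to 39.8 and 42.0 to 46.7, nearly all of it TCF4, with LILRA4 and CLEC4C each under 1 scaled TPM in every library. The part of these marker levels in the member values was not tested.

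Of the 33 members tested, 14 were called higher in HA-TAZ cells and none lower, where called means an adjusted p under 0.05 in the limma fit over all 22651 genes. The called genes were PARP9, ISG15, IFI44, DTX3L, PARP14, IFI16, ISG20, IFI6, IFI30, SAMD9L, OAS1, LAP3, ADAR and MX1, with differences from 1.41 down to 0.32 on the log2 scale. They make up 42.4% of the members tested, beside 4.67% of all genes called higher and 2.63% called lower. At an unadjusted p under 0.05, 21 members were higher and 2 were lower. Among all 22651 genes, 6959 had such a p, higher and lower together. The median difference of the tested members was 0.38, with 26 positive and 7 negative. In such bulk libraries a higher level in every cell and a larger number of expressing cells cannot be told apart. Mean TPM was at least 1.03 in the controls and at least 1.08 in the HA-TAZ libraries for every tested member, so none entered the test through 1 group alone.

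The scaled TPM of the groups did not overlap in 25 of the 33 tested members, with HA-TAZ above control in 23 and below in 2. Among all genes tested, 20.2% lay above control without overlap and 18.3% below. With TPM as deposited, over all 41 members, 18 lay above control without overlap, 9 below and 14 overlapped. The shares of all genes without overlap were not computed for deposited TPM, where the median difference of all genes was −0.27. The scaling mattered for the calls. With TPM as deposited 5 members were called higher (PARP9, ISG15, IFI44, DTX3L and IFI30), beside 1.15% of all genes, SAMD9 was called lower, and the median member difference was 0.12. None of the 14 called members changed sign under any of the 14 alternative settings that could test it.

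Each group holds 3 libraries, and leaving out 1 of them reduced the calls. Members called higher numbered 2 without HA-TAZ 1 (ISG20 and PARP9), 1 without HA-TAZ 2 (PARP9) and 3 without HA-TAZ 3 (DTX3L, IFI16 and PARP9). They numbered 4 without control b (DTX3L, IFI30, PARP14 and PARP9) and 10 each without control a or control c, 9 of the original calls plus OASL in both cases. OASL had a mean of 1.65 TPM in all HA-TAZ libraries and 0.310 TPM in all controls. It passed the level filter in those fits only through the HA-TAZ libraries. The share of all genes called higher fell to between 0.413% and 1.62% in these fits. PARP9 kept its call in all 6, whereas IFI6, MX1, OAS1 and SAMD9L kept it in none.

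**Figure D1:**
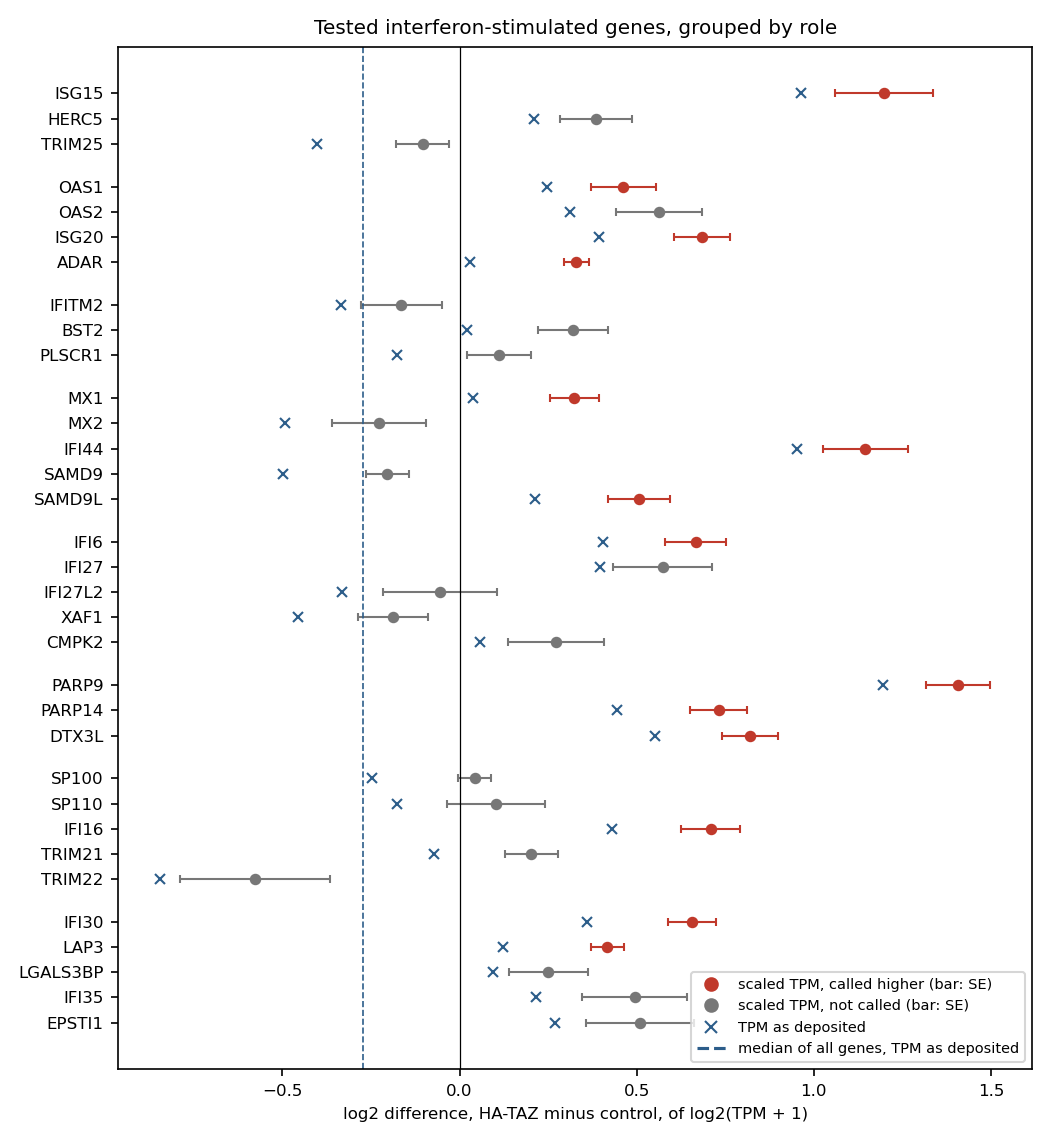
Difference between HA-TAZ and control cells (x axis, log2 scale) for the 33 tested interferon-stimulated genes (y axis), grouped by role. Circles give scaled TPM with the standard error, red where the gene was called higher; crosses give TPM as deposited, and the dashed line is the median of all genes on that scale. The 14 red circles lie between 0.32 and 1.41, and the crosses lie to the left of the circles.

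PARP9, PARP14 and DTX3L were all called higher, and they held the member with the largest difference. DTX3L is a ubiquitin ligase that forms a complex with PARP9, and PARP9 and PARP14 belong to the family of ADP-ribosyltransferases that carry macrodomains. PARP9 (ENSG00000138496) stood at 4.43, 5.30 and 4.26 TPM in HA-TAZ libraries 1 to 3 and at 1.70, 1.36 and 1.35 TPM in controls a to c. The lowest HA-TAZ library was well above the highest control. Mean scaled TPM was 5.13 ± 0.343 against 1.31 ± 0.0817 (SD, n = 3 each), a ratio of 3.92, and the log2 difference was 1.41 (SE 0.09, adjusted p = 0.00328 by limma). DTX3L (ENSG00000163840) stood at 11.1, 12.3 and 9.98 TPM in HA-TAZ cells and 7.75, 7.51 and 6.58 TPM in controls, again without overlap. Its log2 difference was 0.82 (SE 0.08, adjusted p = 0.0106), a ratio of scaled TPM of 1.89. PARP14 (ENSG00000173193) was the most abundant of these genes, at 23.8, 26.0 and 24.3 TPM against 19.6, 19.2 and 15.1 TPM. Its log2 difference was 0.73 (SE 0.08, adjusted p = 0.0134).

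Of the ISG15 system, which attaches the ubiquitin-like protein ISG15 to other proteins and removes it, ISG15 itself was called higher and 2 of 3 tested members were not. ISG15 (ENSG00000187608) stood at 5.39, 6.29 and 6.35 TPM in HA-TAZ cells and at 2.61, 2.08 and 3.14 TPM in controls. The groups were well apart, and mean scaled TPM was 6.62 ± 0.464 against 2.35 ± 0.557 (SD, n = 3 each), with a log2 difference of 1.20 (SE 0.14, adjusted p = 0.0146). HERC5, the main ligase for ISG15 in human cells, lay at 1.44, 1.79 and 1.65 TPM against 1.23, 1.24 and 1.33 TPM. Its groups did not overlap, but its log2 difference of 0.38 (SE 0.10) had an adjusted p of 0.073. TRIM25, a ubiquitin ligase that acts on the RNA sensor RIG-I, was the most abundant member of the system, at 78.9, 96.6 and 83.7 TPM against 136, 109 and 100 TPM. Its log2 difference was −0.10 (SE 0.08, adjusted p = 0.387). Summed over coding transcripts alone, as described further on, TRIM25 had a difference of 0.28 (adjusted p = 0.0188 by limma). On such sums 28.6% of all genes were called higher. Over its other transcripts the difference was −0.28 (adjusted p = 0.199). USP18, the protease that removes ISG15 and also dampens the interferon receptor, and HERC6 stayed under the level filter and are described with the other low genes.

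Among factors that sense, degrade or edit RNA, OAS1, ISG20 and ADAR were called higher, and all 4 tested members had positive differences. OAS enzymes make the 2′-5′-linked oligoadenylates that activate RNase L. OAS1 (ENSG00000089127) stood at 2.60, 3.16 and 2.98 TPM against 2.46, 2.42 and 2.01 TPM, with a log2 difference of 0.46 (SE 0.09, adjusted p = 0.0452). OAS2 lay at 5.58, 7.20 and 5.19 TPM against 4.55, 4.21 and 5.03 TPM. Its groups did not overlap either, and its difference of 0.56 (SE 0.12) fell just short of the threshold (adjusted p = 0.0508). ISG20 (ENSG00000172183), an exonuclease of single-stranded RNA, stood at 30.8, 40.4 and 36.8 TPM against 27.7, 27.5 and 25.8 TPM. Its log2 difference was 0.69 (SE 0.08, adjusted p = 0.0144). ADAR (ENSG00000160710), which edits adenosine to inosine in double-stranded RNA, overlapped in deposited TPM, at 131, 142 and 132 against 142, 129 and 125. After scaling it stood at 151, 147 and 148 against 117, 119 and 118, with a log2 difference of 0.33 (SE 0.04, adjusted p = 0.0128), so its call rests on the scaling.

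None of the 3 tested membrane and entry factors was called. BST2, also known as tetherin, which holds budding virus at the cell surface, was abundant at 113, 117 and 109 TPM in HA-TAZ cells and 104, 116 and 115 TPM in controls. Scaled values were 131, 121 and 123 against 86.1, 106 and 109, and the log2 difference of 0.32 (SE 0.10) had an adjusted p of 0.0948. PLSCR1, a phospholipid scramblase that restricts entry, had a difference of 0.11 (SE 0.09, adjusted p = 0.439). IFITM2, of the family that hinders membrane fusion in endosomes, had a difference of −0.16 (SE 0.11, adjusted p = 0.37). IFITM1, IFITM2 and IFITM3 are close copies, so reads may be split between them and their values are uncertain.

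In the group of the MX GTPases, the IFI44 genes and the SAMD9 genes, 3 of 5 tested members were called higher, with 1 call in each family: IFI44, MX1 and SAMD9L. IFI44 (ENSG00000137965) stood at 3.36, 3.62 and 3.11 TPM in HA-TAZ cells and 1.15, 1.12 and 1.52 TPM in controls. It was among the clearest members, with mean scaled TPM of 3.71 ± 0.194 against 1.14 ± 0.259 (SD, n = 3 each) and a log2 difference of 1.15 (SE 0.12, adjusted p = 0.0121). MX1 (ENSG00000157601), a dynamin-like GTPase that traps viral nucleoproteins, overlapped in deposited TPM, at 17.9, 21.5 and 18.4 against 21.8, 18.1 and 16.5. Scaled, it stood at 20.7, 22.2 and 20.7 against 18.1, 16.6 and 15.6, with a log2 difference of 0.32 (SE 0.07) and an adjusted p of 0.0498, just inside the threshold. MX2, which restricts viral entry to the nucleus, had a difference of −0.23 (SE 0.13, adjusted p = 0.297). Nearly all of its sum lay in transcripts not annotated as coding. Its coding transcripts summed to a mean of 0.106 TPM in HA-TAZ cells and 0.0557 TPM in controls. SAMD9L (ENSG00000177409), a restrictor of translation and growth, overlapped in deposited TPM at 42.3, 46.0 and 37.3 against 42.6, 34.4 and 31.5. Scaled, it stood at 48.8, 47.6 and 41.9 against 35.2, 31.6 and 29.8, with a log2 difference of 0.51 (SE 0.09, adjusted p = 0.0357). Its relative SAMD9 stood at 34.1, 37.2 and 30.7 TPM against 53.6, 46.7 and 44.9 TPM. Every HA-TAZ library was below every control for SAMD9, and its difference of −0.20 (SE 0.06) had an adjusted p of 0.0931.

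**Figure D2:**
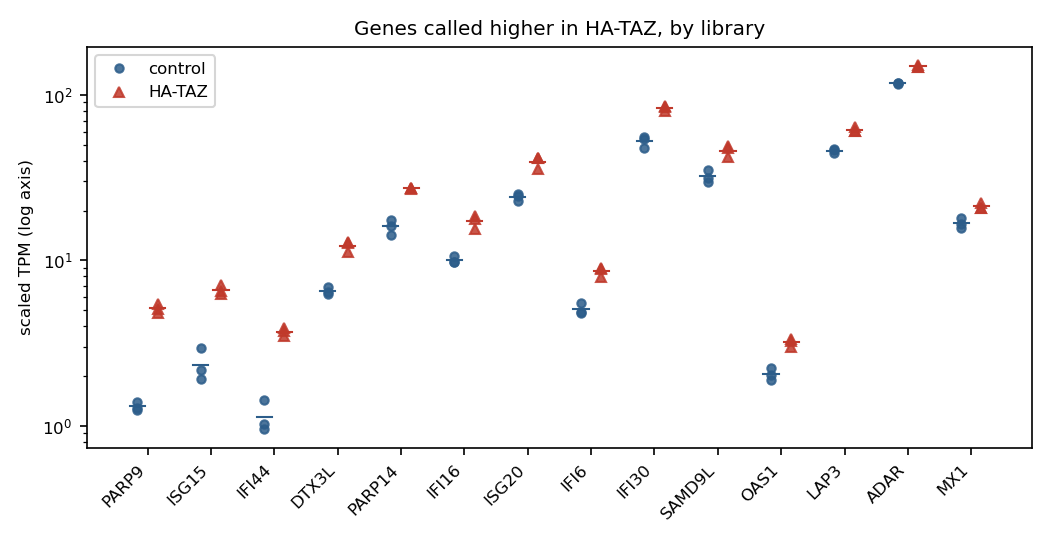
Scaled TPM (y axis, log scale) in each library for the 14 genes called higher (x axis, in order of log2 difference), with 3 control libraries as blue circles, 3 HA-TAZ libraries as red triangles and a line at each group mean. The groups do not overlap for any of the 14 genes; PARP9 has the widest gap and MX1 and ADAR narrow ones.

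Among members linked to mitochondria and apoptosis, IFI6 was called higher and the other 4 were not. IFI6 (ENSG00000126709), an inhibitor of apoptosis, stood at 7.71, 8.73 and 7.08 TPM against 5.91, 6.05 and 5.05 TPM, without overlap, with a log2 difference of 0.67 (SE 0.09, adjusted p = 0.0207). Its relative IFI27 had a difference of 0.57 (SE 0.14, adjusted p = 0.0625). The most abundant of the group, IFI27L2, lay at 10.1, 10.0 and 10.2 TPM against 11.8, 11.5 and 15.9 TPM, with a difference of −0.05 (SE 0.16, adjusted p = 0.84). That value turned to 0.12 without control c, the highest library. XAF1, which opposes the apoptosis inhibitor XIAP, had a difference of −0.19 (SE 0.10, adjusted p = 0.254), and CMPK2, a mitochondrial nucleotide kinase, one of 0.27 (SE 0.13, adjusted p = 0.228).

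Of the nuclear members, IFI16 was called higher and the others were not. IFI16 (ENSG00000163565), a sensor of DNA, stood at 15.3, 17.9 and 13.7 TPM against 12.9, 10.7 and 10.4 TPM, and its log2 difference was 0.71 (SE 0.08, adjusted p = 0.015). SP100, a constant part of PML nuclear bodies, lay at 22.5, 24.6 and 21.8 TPM against 30.2, 26.7 and 25.5 TPM. Its groups were apart as deposited and overlapped once scaled, with a difference of 0.04 (SE 0.05, adjusted p = 0.567). SP110 and TRIM21, the cytosolic receptor for antibodies, had differences of 0.10 (SE 0.14, adjusted p = 0.646) and 0.20 (SE 0.07, adjusted p = 0.135). TRIM22, a ubiquitin ligase with antiviral activity, had the most negative difference of any member. It stood at 4.11, 7.40 and 8.22 TPM in HA-TAZ cells and 13.3, 11.5 and 11.8 TPM in controls. The groups did not overlap, but the HA-TAZ libraries were spread widely, and the difference of −0.58 (SE 0.21) had an adjusted p of 0.135.

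The last group holds genes of antigen processing and others of mixed role, and IFI30 and LAP3 were called higher. IFI30 (ENSG00000216490), the lysosomal thiol reductase that unfolds antigens for presentation, stood at 73.2, 77.0 and 76.3 TPM against 58.0, 60.6 and 57.2 TPM. The groups were clearly apart, with a log2 difference of 0.66 (SE 0.07, adjusted p = 0.0122). LAP3 (ENSG00000002549), a leucine aminopeptidase, stood at 55.6, 58.5 and 53.8 TPM against 53.6, 50.8 and 49.7 TPM. As deposited the groups nearly met, and on scaled values the difference was 0.42 (SE 0.05, adjusted p = 0.0139). IFI35 lay at 12.7, 12.5 and 14.9 TPM against 9.96, 12.6 and 11.6 TPM, with a difference of 0.49 (SE 0.15, adjusted p = 0.0914). EPSTI1 and LGALS3BP, a secreted glycoprotein that binds galectins, had differences of 0.51 (SE 0.15, adjusted p = 0.0918) and 0.25 (SE 0.11, adjusted p = 0.189).

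The 8 members below the level filter divided into some that were clearly higher in HA-TAZ cells and some that were not. USP18 had the widest ratio of any member. It stood at 0.410, 0.568 and 0.468 TPM in HA-TAZ cells and 0.0261, 0.0540 and 0.0552 TPM in controls, a ratio of scaled means of 12.9. OASL, a catalytically inactive relative of the OAS enzymes, stood at 1.43, 1.76 and 1.76 TPM against 0.418, 0.402 and 0.110 TPM, a ratio of 6.66. Both were far apart between the groups. In a limma fit without a level filter, which took in all 41 members, both were called higher (adjusted p = 0.0129 for USP18 and 0.025 for OASL). That fit called 13 members higher, beside 1.06% of all 47371 genes, and did not call MX1, OAS1 or SAMD9L. RSAD2, which makes the antiviral nucleotide ddhCTP, stood at 1.05, 1.42 and 1.22 TPM against 0.756, 0.606 and 0.640 TPM, and OAS3 at 0.617, 0.341 and 0.601 TPM against 0.239, 0.280 and 0.140 TPM. These groups also did not overlap, and the adjusted p in the fit without the filter was 0.0622 for RSAD2 and 0.139 for OAS3. IFI44L was the low member with HA-TAZ below control, at 0.273, 0.455 and 0.334 TPM against 0.646, 0.524 and 0.511 TPM (adjusted p = 0.413 in the same fit). Its coding transcripts summed to a mean of only 0.0582 TPM in HA-TAZ cells and 0.0556 TPM in controls. HERC6 (0.431 to 0.735 TPM in HA-TAZ cells, 0.654 to 0.860 in controls), IFITM1 (0.362 to 0.608, 0.193 to 0.871) and IFITM3 overlapped between the groups, and IFITM3 was listed at 0 in HA-TAZ 2 and control c. Such low values rest on few reads: the USP18 transcript ENST00000215794.7 had about 19 estimated counts, derived from its mean log count in the authors' deposited table.

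**Figure D3:**
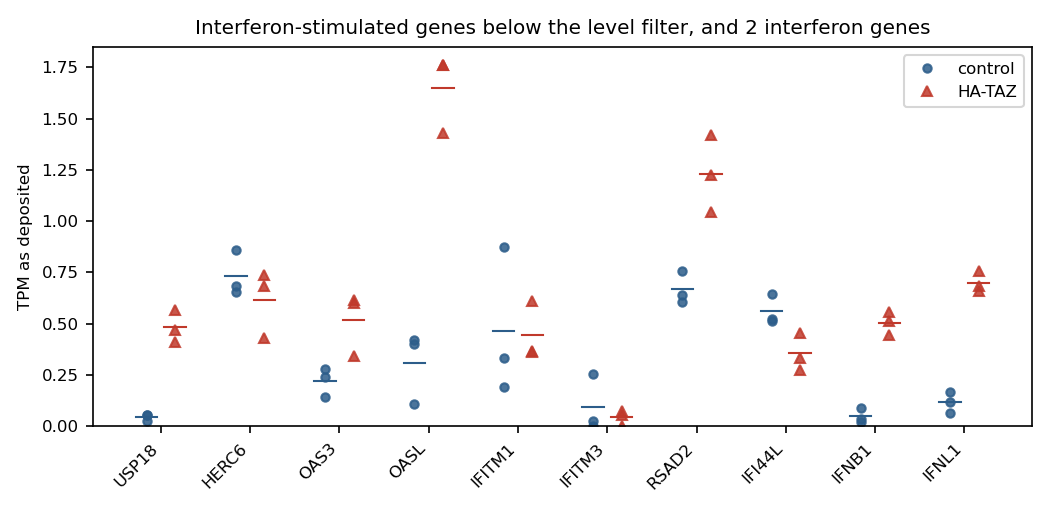
TPM as deposited (y axis) in each library for the 8 interferon-stimulated genes below a mean of 1 TPM and for the interferon genes IFNB1 and IFNL1 (x axis), with controls as blue circles, HA-TAZ libraries as red triangles and a line at each group mean. OASL, USP18, RSAD2, OAS3, IFNB1 and IFNL1 lie higher in HA-TAZ cells without overlap, and IFI44L lies lower.

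Sums per gene mix spliced messages with other RNAs, since total RNA was sequenced. Of 101 member transcripts with a mean of at least 1 TPM, 7 were called higher by limma over 57448 transcripts, none lower, beside 0.456% of all transcripts called higher. All 7 are annotated as protein coding, and they belong to DTX3L, IFI30, ISG15, MX1, OAS2, PARP14 and SAMD9L. The count fell to between 0 and 2 when any 1 library was left out, with the share of all transcripts in those fits not given here. The authors' deposited table, a Wald test by sleuth on a natural log scale, gave statistics for 212 member transcripts. A positive effect at q under 0.05 was found for 32 of these (15.1%) and a negative one for 1 in the authors' deposited table, beside 4.08% and 1.6% of all its transcripts. These 32 came from 22 of the members, and 24 are annotated as coding, 5 as retaining an intron and 3 as processed transcripts. The authors' test and the limma fit use the same libraries, so the calls are not independent.

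In MX1 the 2 main transcripts had differences of opposite sign. The transcript ENST00000398598.3, which encodes the 662-residue MX1 protein, stood at 8.08, 9.65 and 7.76 TPM in HA-TAZ cells and 2.82, 3.62 and 2.65 TPM in controls. The lowest HA-TAZ value was more than any control, and the log2 difference was 1.48 (SE 0.12, adjusted p = 0.0145). A transcript that keeps an intron, ENST00000484465.1, lay at 4.47, 5.88 and 5.06 TPM in HA-TAZ cells and 11.7, 10.1 and 8.93 TPM in controls, with a log2 difference of −0.61 (SE 0.10, adjusted p = 0.063). This was the single member transcript with a negative effect at q under 0.05 in the authors' deposited table (q = 0.0484). The log2 ratio of the coding to the intron-keeping transcript within a library, which does not depend on scaling, was 0.73 ± 0.12 in HA-TAZ cells and −1.76 ± 0.29 in controls (SD, n = 3 each; exact two-sided permutation p = 0.1, the smallest that 3 against 3 allows). The difference of MX1 as a gene sums the values of both.

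ADAR makes a long protein of 1226 residues, whose promoter answers to interferon, and a shorter one of 931 residues made constitutively. The long-form transcript ENST00000368474.4 stood at 54.7, 53.1 and 57.8 TPM in HA-TAZ cells and 42.9, 46.6 and 43.6 TPM in controls, without overlap. Its log2 difference was 0.60 (SE 0.10, adjusted p = 0.068 by limma), and in the authors' deposited table its natural log effect was 0.447 (SE 0.071, q = 9.34e-08). The transcript of the shorter form, ENST00000368471.3, overlapped at 38.1, 43.4 and 31.7 TPM against 60.4, 43.2 and 38.4 TPM, with a log2 difference of −0.01 (SE 0.15, adjusted p = 0.972). The within-library log2 ratio of long to short was 0.56 ± 0.29 in HA-TAZ cells and −0.07 ± 0.37 in controls (SD, n = 3 each, exact two-sided permutation p = 0.1). This ratio left out a coding transcript of 1200 residues, ENST00000529168.1. It overlapped at 9.99, 12.8 and 10.7 TPM in HA-TAZ cells and 10.8, 10.6 and 10.0 TPM in controls. Its log2 difference was 0.35 (SE 0.08, adjusted p = 0.0927 by limma), and the authors' deposited table gave q = 0.0063.

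Transcript values are also given for HERC5, OAS2 and TRIM25, where a difference between transcripts of the gene was not tested. The full-length HERC5 transcript ENST00000264350.3, encoding 1024 residues, lay at 0.890, 0.805 and 0.723 TPM in HA-TAZ cells and 0.181, 0.119 and 0.210 TPM in controls. A shorter coding transcript, ENST00000508159.1, lay the other way, at 0.450, 0.715 and 0.690 TPM against 0.999, 0.997 and 1.0 TPM. Both are below the level filter, and in the authors' deposited table the full-length one had q = 8.12e-12 and the shorter one q = 0.72. The OAS2 transcript ENST00000392583.2, encoding 687 residues, stood at 3.11, 3.44 and 2.93 TPM against 1.75, 1.37 and 1.34 TPM (log2 difference 0.95, SE 0.10, adjusted p = 0.0258). An OAS2 transcript encoding 172 residues, ENST00000449768.2, had a difference of 0.08 (SE 0.10, adjusted p = 0.68). In TRIM25, an intron-keeping transcript lay at 14.7, 18.2 and 11.5 TPM in HA-TAZ cells and 46.2, 25 and 21.1 TPM in controls, below without overlap but with control a far above the others (adjusted p = 0.198).

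**Figure D4:**
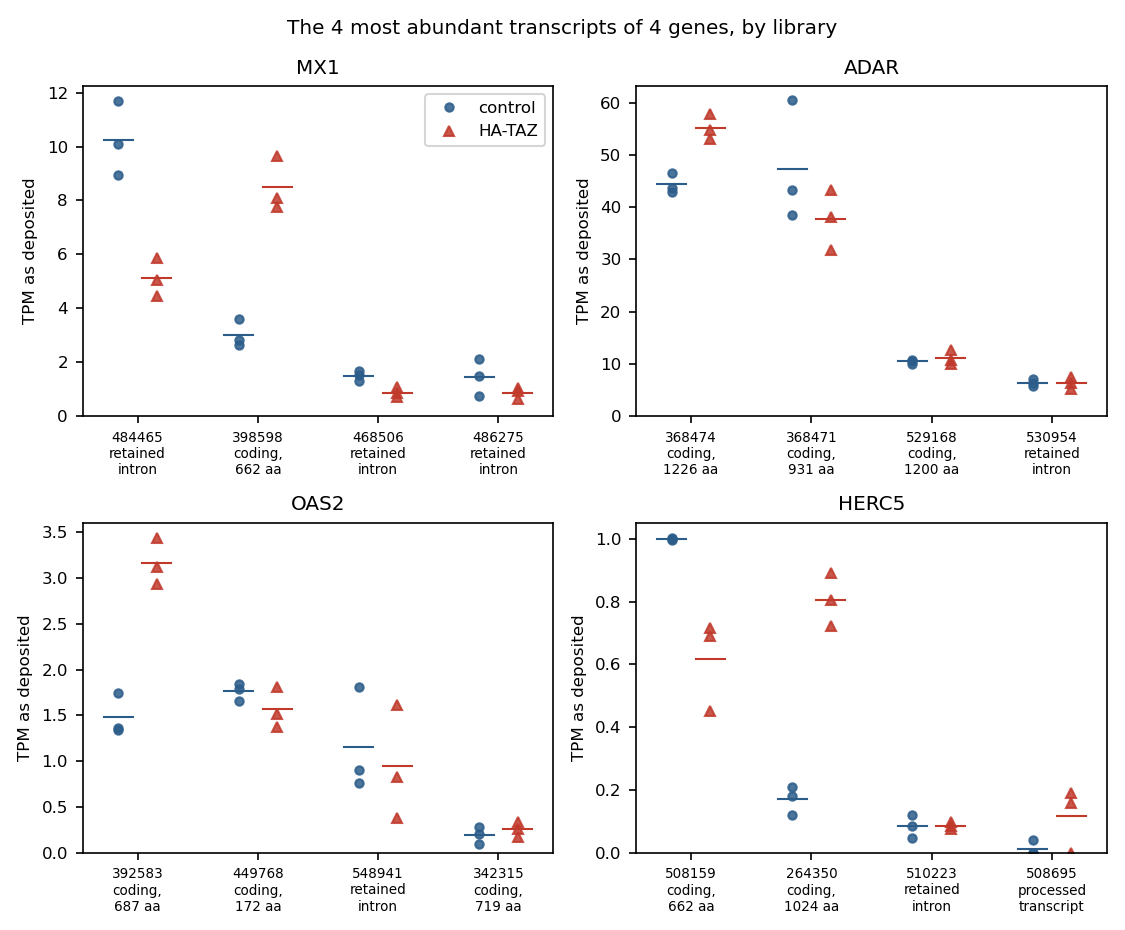
TPM as deposited (y axis) in each library for the 4 most abundant transcripts of MX1, ADAR, OAS2 and HERC5 (x axes, labelled by the last digits of the transcript ID and the annotated type, with protein length in residues). Circles are controls, triangles HA-TAZ libraries and lines group means; the MX1 coding transcript of 662 residues is higher and its retained-intron transcript lower in HA-TAZ cells.

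When only coding transcripts were summed, a choice made after seeing the data, 21 of 30 tested members were called higher and SAMD9 and TRIM22 lower. All genes shifted too on this sum, with 28.6% of 10527 genes called higher and 4.11% lower. The members' median difference was 0.46 and that of all genes 0.13. Of the 21 called higher, IFI44 and CMPK2 had coding sums averaging 0.334 and 0.833 TPM in controls. These 2 genes passed the level filter only through the HA-TAZ libraries. MX1 had 10.7, 11.4 and 9.67 TPM in coding transcripts against 5.05, 4.61 and 3.83 TPM, a log2 difference of 1.34 (adjusted p = 6.02e-05). Summed over its other transcripts, MX1 had a difference of −0.39 (adjusted p = 0.0974). Of the 20 members tested on such non-coding sums none was called, with a median of 0.06 beside −0.09 for all genes. The coding sum had the larger difference in 15 of 19 members with both sums and in 78.7% of 7283 genes with both, so this split was about as common among the members as among all genes.

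Of the pathway that drives these genes, no interferon gene reached the level filter, and the transcription factors IRF1, IRF9 and STAT2 were called higher. The list, made of interferons, receptors, kinases, factors and inhibitors, held 39 genes found in the data, of which 17 reached the level filter; 6 were called higher and 1 lower. The 21 interferon genes all had a mean under 1 TPM. Among them IFNB1 stood at 0.559, 0.510 and 0.445 TPM in HA-TAZ cells and 0.0906, 0.0215 and 0.0325 TPM in controls. IFNL1, a type III interferon, stood at 0.657, 0.755 and 0.683 TPM against 0.118, 0.168 and 0.0633 TPM. Both were apart between the groups. In the limma fit without a level filter both were called higher (adjusted p = 0.0185 and 0.0144), beside 1.06% of all genes. IFNG was listed at 0 in every library but control b.

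Of the receptor chains, IFNGR2 was called higher, with a log2 difference of 0.50 (SE 0.09, adjusted p = 0.0363) and nearly the same value under a second gene ID. The most abundant chain, IFNAR1, lay at 29.1, 33.3 and 28.0 TPM in HA-TAZ cells and 34.3, 33.6 and 29.96 TPM in controls (difference 0.18, SE 0.06, adjusted p = 0.11). The kinase TYK2 stood at 76.4, 82.7 and 79.9 TPM against 92.4, 70.1 and 69.4 TPM, overlapping as deposited, with a difference of 0.35 (SE 0.07, adjusted p = 0.0491). Of the factors, IRF1, IRF7 and IRF9 were apart between the groups as deposited. IRF7 stood at 9.33, 9.09 and 9.64 TPM against 5.92, 6.68 and 8.26 TPM, and was not called (difference 0.66, SE 0.16, adjusted p = 0.0605). IRF1 stood at 42.8, 42.9 and 43.3 TPM against 26.7, 25.2 and 24.9 TPM, a log2 difference of 1.02 (SE 0.06, adjusted p = 0.00243). IRF9 stood at 17.8, 19.8 and 17.3 TPM against 13.4, 9.50 and 11.9 TPM, a difference of 0.91 (SE 0.10, adjusted p = 0.0138). STAT2 had a smaller difference of 0.33 (SE 0.06, adjusted p = 0.0359) and overlapped in deposited TPM. Of the inhibitors, PIAS1 was called lower, at 28.5, 33.0 and 29.3 TPM against 54.9, 44.5 and 42.1 TPM (difference −0.32, SE 0.06, adjusted p = 0.0406). SOCS3, a feedback inhibitor under the level filter, stood at 1.07, 1.21 and 1.24 TPM against 0.0304, 0.0788 and 0.0326 TPM, a ratio of scaled means of 30.3, and was called higher in the fit without that filter (adjusted p = 0.00761). Its relative SOCS1 stood at 1.79, 1.15 and 1.35 TPM against 0.621, 0.713 and 0.706 TPM, without overlap, and its difference of 0.67 (SE 0.15) had an adjusted p of 0.0569. SOCS1 passed the level filter only through the HA-TAZ libraries, with means of 1.43 TPM there and 0.680 TPM in controls. The number of called pathway genes fell from 7 to between 1 and 3 when any 1 library was left out.

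Several members lie next to each other in the genome, and their ratio within a library does not depend on the scaling. Of 13 pairs of members within 100 kb in the RefSeq annotation, a choice made after seeing the data, 11 had values above 0 in every library, and in 7 the ratio did not overlap between the groups. Each of these 7 had an exact two-sided permutation p of 0.1, the smallest that 3 against 3 allows (0.157 after Benjamini-Hochberg adjustment over the 11 pairs), so none passed. The share of such pairs among other genes was not computed. The log2 ratio of SAMD9 to SAMD9L was −0.31, −0.31 and −0.28 in HA-TAZ cells and 0.33, 0.44 and 0.51 in controls, so the order of their levels per length was the opposite in the 2 groups. The ratio of IFI44L to IFI44 was −3.28 ± 0.32 in HA-TAZ cells and −1.17 ± 0.373 in controls (SD, n = 3 each), a difference of −2.11. PARP9 relative to DTX3L, with which it shares the response element printed above, was −1.26 ± 0.0621 against −2.31 ± 0.138. The other pairs apart were IFI27 over IFI27L2 (difference 1.05), CMPK2 over RSAD2 (−0.80), HERC6 over HERC5 (−0.63) and MX2 over MX1 (−0.60). In all 7 pairs except PARP9 and DTX3L at most 1 of the genes was called. Of the genes in these 7 pairs, IFI44L, RSAD2 and HERC6 were under the level filter. The ratios mix coding and other transcripts, and coding ones were a small part of IFI44L, MX2 and HERC6. For HERC6 they averaged 0.107 TPM in HA-TAZ cells and 0.0295 TPM in controls. The ratios among OAS1, OAS2 and OAS3 and that of IFITM2 to IFITM1 overlapped.

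**Figure D5:**
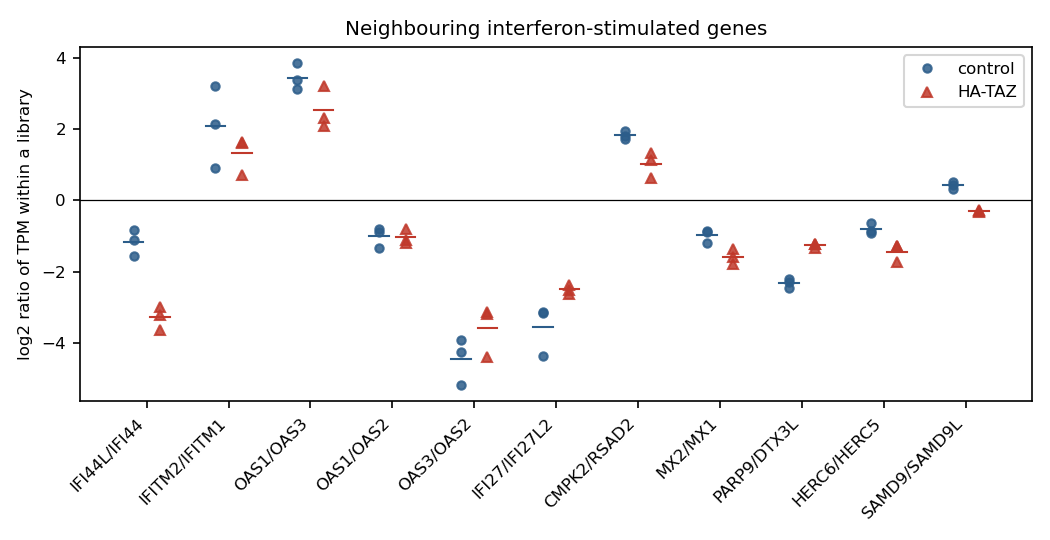
Log2 ratio of TPM within each library (y axis) for 11 pairs of neighbouring interferon-stimulated genes (x axis), with controls as circles, HA-TAZ libraries as triangles and lines at group means. The SAMD9 to SAMD9L ratio lies below 0 in the 3 HA-TAZ libraries and above 0 in the 3 controls.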

How the data were processed

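Total RNA of KMS27 was sequenced after ribosomal depletion from stranded libraries, per the labels' protocols. The authors deposited TPM per transcript from kallisto 0.46.0, per the submitters' processing notes, which also name GRCh37 and sleuth 0.30.0. Per the file headers, the authors' Wald table gives p-values, q-values and an effect on a natural log scale. Whether strand was used in quantification is not given in the sources used here, so overlapping genes are uncertain. TPM holds no depth. Counts were derived from the mean log counts in the authors' deposited table, for the 212 member transcripts with statistics there. Their median was 57.6 estimated counts, a counting error of 13.2% that leaves out the splitting of reads between transcripts. All value columns were used. A gene of the pathway list is counted but not reported here by name.

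TPM was summed per Ensembl gene ID, scaled, and tested as log2(scaled TPM + 1) with limma 3.58.1 (trend, two-sided, Benjamini-Hochberg) in R 4.3.3 over genes with mean TPM of at least 1. The scaling factors came from 21512 genes. Transcripts were scaled by their own factors. Scripts were checked on simulated data. Python 3.11.15 was used for tables and figures. Transcript types and protein lengths came from GENCODE 29, which gave a type for 82.5% of gene IDs; promoters and neighbours came from RefSeq. The members, lists and role groups were chosen with earlier results of these data known. Values in every library are given for each called member and for the uncalled tested member of highest TPM in each role; other values, the transcripts and the low genes shown, the coding sums and the within-library ratios were chosen after values were seen. The labels do not say that libraries came from separate cultures, so p-values measure only the spread between these libraries, which may be technical. Tried alternatives were the pseudocount, the level filter, the scaling, coding genes alone, no trend, sums per symbol and leaving out each library.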

Additional observations from a re-analysis of the deposited data

How the results depend on the processing

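Members called higher numbered 14, and 21 with protein-coding genes only or with sums over coding transcripts, 5 with TPM as deposited, and 1 to 10 when 1 library was left out. With protein-coding genes only, 36 members were tested, and 11.6% of all genes were called higher against 4.67%. The 21 calls of that fit included OASL and RSAD2, at control means of 0.310 and 0.667 TPM as deposited. With TPM as deposited the share of higher among all calls was 7.84%, against 64.0% on scaled TPM, and calls over all genes numbered 3329 against 1652. Members called lower numbered 0, but 1 with TPM as deposited and 2 with protein-coding genes only or coding sums. The median member difference of 0.38 was 0.44 with a pseudocount of 0.1, 0.32 with a mean of at least 5 TPM and 0.12 with TPM as deposited, and 0.36 to 0.43 when 1 library was left out. Pathway genes called numbered 7, but 12 with protein-coding genes only, 4 without the trend and 1 to 3 when 1 library was left out. Member transcripts called numbered 7, but 4 without a filter, 12 at a mean of at least 5 TPM, 1 with TPM as deposited, 4 without the trend and 0 to 2 when 1 library was left out. At q under 0.05, 33 member transcripts passed in the authors' deposited table, and at q under 0.01, 23. The share of all transcripts called is given only for the main fit and for q under 0.05. The other transcript counts are therefore not read as a result about the members. With TPM as deposited the sign turned for the uncalled genes PLSCR1 (−0.18), SP100 (−0.25), SP110 (−0.18), TRIM21 (−0.072), IFNAR1 (−0.11), IFNAR2 (−0.22), IFNGR1 (−0.087), IFNLR1 (−0.21), IL10RB (−0.25) and JAK1 (−0.24). With protein-coding genes only it turned for SP100 (−0.022), IFNAR2 (−0.0035), IL10RB (−0.034) and JAK1 (−0.021). With 1 library left out, values ranged across 0 for JAK1 (−0.013 to 0.10), IL10RB (−0.014 to 0.059), SP110 (−0.026 to 0.21) and IFI27L2 (−0.17 to 0.12). Leaving out a library leaves fewer samples; for the other changes the cause was not tested. No paired analysis was possible because the control columns carry a name in no label, so their numbers match no replicate number of the labels. Low genes are limited by depth.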
